A study of Homo sapiens with 9 samples.

Results

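The nuclear genes of oxidative phosphorylation were taken as every gene in the files whose symbol begins with NDUFA, NDUFB, NDUFC, NDUFS, NDUFV, UQCR, COX4I, COX5, COX6, COX7, COX8 or ATP5, together with SDHA, SDHB, SDHC and SDHD. This gave 100 of 23619 genes. Of these, 81 encode structural subunits, 37 of complex I, 4 of complex II, 8 of complex III, 17 of complex IV and 15 of complex V. The other 19 were complex I assembly factors, the supercomplex factor COX7A2L, the paralogue NDUFA4L2, and pseudogene, antisense, read-through and related symbols. They were described in RNA sequencing of the colorectal cancer line RKO and of RKO clones in which exon 9 of DIP2C had been targeted with recombinant adeno-associated virus. The samples were 2 of parental RKO (parental-1 and parental-2), 2 DIP2C-/- clones (E3 and C10) and 5 DIP2C+/- clones, named F6-A7, H9-A4, A9-A12, then G1-A5 and lastly A6-C9, all grown for 48 h and each sequenced as 1 library. Each clone was grown from a single cell after drug selection and removal of the selection cassette, and both DIP2C-/- clones were made from the same DIP2C+/- clone, so they are not independent of each other. The study's text describes fewer DIP2C+/- clones than the labels hold, so whether all 5 were isolated independently is not known, and SDs, tests and counts over clones treat each as separate. No clone with intact DIP2C had been taken through the same steps, so the loss of DIP2C and the selection of a clone cannot be told apart here.

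Oxidative phosphorylation couples the oxidation of NADH and succinate to the synthesis of ATP in the inner mitochondrial membrane. Complexes I and II pass electrons to ubiquinone, complex III to cytochrome c and complex IV to oxygen. Complex V, the ATP synthase, uses the proton gradient set up by complexes I, III and IV. Most subunits are encoded in the nucleus, and a few core subunits of complexes I, III, IV and V are encoded by mitochondrial DNA; the latter were not analysed here. Colorectal cancer cells in culture are known for a high rate of glycolysis while keeping respiration.

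The targeted gene was lowest in the DIP2C-/- clones. DIP2C was at 61.0 and 70.9 CPM (counts scaled to an equal library total) in parental-1 and parental-2, at 17.4 in E3 and 22.8 in C10, and at 33.7 to 56.3 in the DIP2C+/- clones, the highest of which was H9-A4. Library totals were 14772593 to 21486483. Of the colon epithelial markers, CDX2 (15.6 to 19.8 CPM), KRT8 and KRT18 were expressed in every sample. EPCAM was low, at 1.05 and 0.37 CPM in parental-1 and parental-2, and at 3.79 in H9-A4. VIL1 was at 0.94 and 0.21 CPM in parental-1 and parental-2. CDH1, KRT19 and KRT20 were at most 0.33 CPM in parental RKO. Tests were run on 15532 genes that passed a filter on low counts, 93 of the 100 members and 76 of the 81 subunit genes among them. The 7 that did not pass were COX4I2, COX6A2, COX7A1, COX7B2, COX8C, ATP5L2 and UQCRBP1, with at most 11.4 counts in any sample.

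The subunit genes as a group stayed close to their parental level. Their summed level was 7602 and 8852 CPM in parental-1 and parental-2, 8047 in E3, 8298 in C10, and 8805, 8072, 7842, 8961 and 9276 in the DIP2C+/- clones in that order. The clones lay within the span of the 2 parental samples, except G1-A5 and A6-C9, which lay above it. As means, this was 8227 ± 884 CPM over the 2 parental samples (SD), 8172 ± 178 over the 2 DIP2C-/- clones (SD) and 8591 ± 609 over the 5 DIP2C+/- clones (SD). On average the 76 genes held 0.84% of all counts.

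No member passed the test in any comparison of the groups. A gene was called at a Benjamini-Hochberg adjusted p-value under 0.05 in edgeR's quasi-likelihood test over all genes. In DIP2C-/- clones against parental RKO, 0 of 93 members were called, with 0.00644% of all genes called. The count was also 0 of 93 in DIP2C+/- clones (0.0966% of all genes), in all 7 clones together (0.18%) and in DIP2C+/- against DIP2C-/- clones (0%). At an unadjusted p under 0.05, the members passing were 8 of 93 (8.6%; 5 higher and 3 lower) in DIP2C-/- clones, where 12.7% of all genes did. They were 5 (5.4%, against 11.6%) in DIP2C+/- clones, 9 (9.7%, against 13.4%) in all clones and 3 (3.2%, against 5.57%) between the genotypes. These shares were below those of all genes in each comparison. DESeq2 called 1 member in DIP2C-/- clones, NDUFB11, with 1.9% of all genes called. It called no member in DIP2C+/- clones (1.23% of all genes), in all clones (1.96%) or between the genotypes (0.0386%).

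The number of calls over all genes rested on 1 clone. Without H9-A4, edgeR called 4.76% of genes in DIP2C-/- clones, 7.95% in DIP2C+/- clones and 8.95% in all clones. The members called were then 0, 0 and 1, the last being the complex I subunit gene NDUFS5 with a log2 fold change of -0.40 ± 0.11 (SE, adjusted p = 0.0493). When DIP2C+/- clones were left out of the fit, 12.6% of genes were called and 3 of 92 members, NDUFB11 as lower and NDUFV2 and UQCRB as higher.

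A count that needs no model gave a like picture. In 1 member, NDUFA8, all 7 clones lay above both parental samples, where 5.41% of all genes did so. In 3 members all clones lay below both, where 5.54% of all genes did: NDUFS3, COX6B2 and the pseudogene symbol ATP5EP2, whose reads cannot be told apart with certainty from those of ATP5E. NDUFA8, a supernumerary subunit held in the intermembrane space, was at 84.0 and 80.6 CPM in parental-1 and parental-2, at 116 in E3 and 102 in C10, and at 108, 93.7, 95.9, 105 and 121 in the DIP2C+/- clones in the order above. Even the lowest clone, H9-A4, was above both parental samples. The log2 fold change over all clones was 0.36 ± 0.13 (SE, adjusted p = 0.321). NDUFS3, a core subunit near the ubiquinone site, was at 65.4 and 58.3 CPM in parental RKO, at 47.5 and 53.6 in E3 and C10, and between 42.1 and 57.4 in the DIP2C+/- clones. Its fitted log2 fold change was -0.26 ± 0.14 (SE, adjusted p = 0.45). COX6B2, the testis form of a complex IV subunit, was at 0.99 and 0.84 CPM in parental RKO and at 0.051 to 0.54 in the clones. A level of 3 counts corresponded to 0.14 to 0.203 CPM, so A9-A12 and A6-C9 were below it and the fitted log2 fold change of COX6B2, -1.71 ± 0.69 (SE, adjusted p = 0.333), rests on few counts. COX6B2 also passed the filter on low counts through the parental samples alone. A gene kept in that way is apt to be lower in the clones, so its place in this count is no support for a difference.

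The bases before the starts of these 3 genes are given because they are the subunit genes whose clones did not overlap with parental RKO. Sequences are from RefSeq on GRCh38.p14, a build other than that of the files, and cover the 250 bases upstream of the start, 5′ to 3′ on the strand of the gene. They lie at chr9:122159780-122160029 (minus strand) for NDUFA8, chr11:47578824-47579073 (plus strand) for NDUFS3 and chr19:55354720-55354969 (minus strand) for COX6B2. Capitals mark 3 motifs on either strand, GCGCATGC (bound by NRF1), CCGGAAG (bound by ETS factors such as GABP) and TGACGTCA (the cAMP response element), which can touch but share no bases here.
NDUFA8: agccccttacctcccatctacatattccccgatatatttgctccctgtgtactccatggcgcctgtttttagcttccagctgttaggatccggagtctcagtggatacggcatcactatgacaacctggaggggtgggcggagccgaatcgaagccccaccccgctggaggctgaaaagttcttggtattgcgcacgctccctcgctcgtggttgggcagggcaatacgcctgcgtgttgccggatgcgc
NDUFS3: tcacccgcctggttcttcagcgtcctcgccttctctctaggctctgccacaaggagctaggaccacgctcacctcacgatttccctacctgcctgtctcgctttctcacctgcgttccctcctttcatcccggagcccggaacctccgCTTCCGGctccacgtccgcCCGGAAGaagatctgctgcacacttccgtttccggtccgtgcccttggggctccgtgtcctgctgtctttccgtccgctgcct
COX6B2: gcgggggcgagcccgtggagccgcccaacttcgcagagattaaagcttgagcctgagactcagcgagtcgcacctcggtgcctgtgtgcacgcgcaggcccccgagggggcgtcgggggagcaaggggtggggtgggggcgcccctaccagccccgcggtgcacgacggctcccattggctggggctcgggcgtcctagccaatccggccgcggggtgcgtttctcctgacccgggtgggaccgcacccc
NDUFS3 held the ETS letters on both strands, and NDUFA8 and COX6B2 held none of the 3 motifs. Promoters of 66 of the 81 subunit genes were matched. The NRF1 letters stood in 12 of these 66 (18.2%) and in 2.81% of all 27305 gene promoters of the same length. The ETS letters stood in 16 (24.2%, against 8.82%), the cAMP response element in 4 (6.1%, against 1.77%) and CCAAT, searched in the same way, in 21 (31.8%, against 33.04%). NRF1 and GABP are known as activators of nuclear respiratory genes. The promoters of all genes include many of unlike base composition, so these shares are descriptions.

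The complex medians of the clones lay close to the parental mean, mostly within the distance between the parental samples. For each gene, the log2 CPM of a clone minus the mean of the 2 parental samples was taken. Over the 93 members the median was -0.08 in E3, -0.02 in C10, 0.09 in F6-A7, -0.05 in H9-A4 and -0.13 in A9-A12, then 0.11 in G1-A5 and 0.08 in A6-C9. Over all genes tested these medians were -0.01 to 0.02. Over 79 symbols of mitochondrial ribosomal proteins they were -0.13 to 0.14, also lowest in A9-A12 and highest in G1-A5, so this order was not particular to the members. The median over the members for parental-2 minus parental-1 was 0.25, and 0.00 over all genes. Both DIP2C-/- clones were below 0, C10 close to it, and the DIP2C+/- clones stood on both sides. The direction depended on the parental sample used. Against parental-1 alone, the members' median was above 0 in 6 of 7 clones, and against parental-2 alone it was below 0 in all 7.

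**Figure D1:**
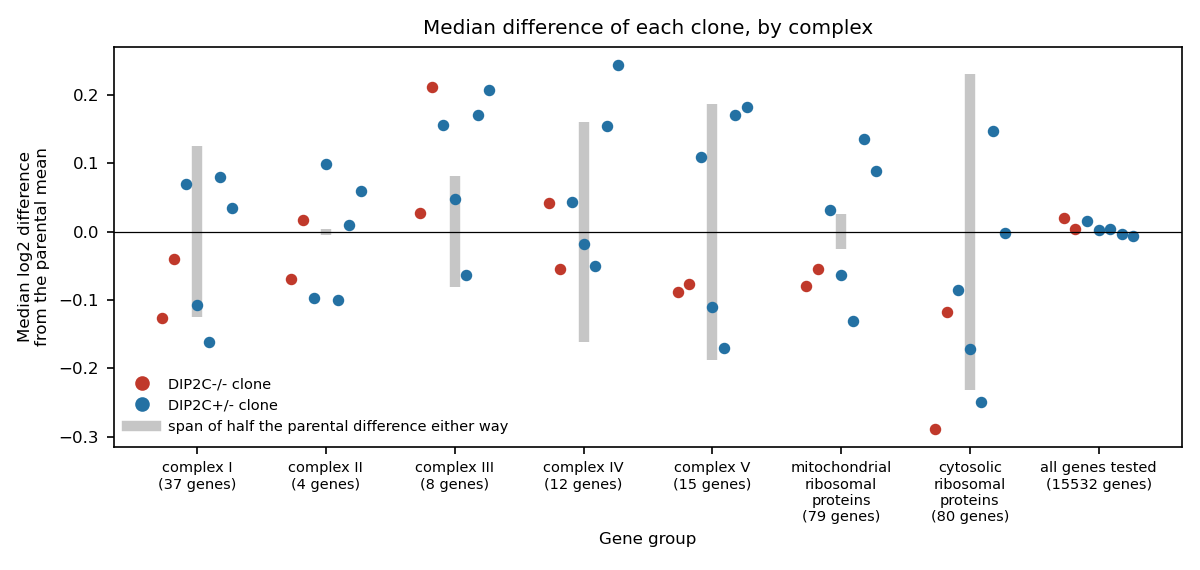
Median log2 CPM difference of each clone from the parental mean (y axis) for the 5 complexes, the ribosomal protein genes and all genes tested (x axis); each point is a clone and the grey bar spans the parental samples around their mean. In complexes I, IV and V most points fall within the grey bar, while in complex III 4 clones lie above it.

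By complex, the clone medians ran from -0.16 to 0.08 in complex I, -0.10 to 0.10 in complex II, -0.06 to 0.21 in complex III, -0.05 to 0.24 in complex IV and -0.17 to 0.18 in complex V. Complex III, which carries electrons from ubiquinol to cytochrome c, was highest by the median over clones, with C10 at 0.21, A6-C9 at 0.21, G1-A5 at 0.17 and F6-A7 at 0.16. The parental samples differed by 0.25, -0.01, 0.16, 0.32 and 0.38 in complexes I to V. The single clones were also set against a 1.5-fold limit. At least 1.5-fold from the parental mean were 13 of 93 members in E3 (14%, where 31.1% of all genes were), 8 in C10 (8.6%, against 27.4%), 9 in F6-A7 (9.7%, against 31.4%), 7 in H9-A4 (7.5%, against 19.3%), 17 in A9-A12 (18.3%, against 31%), 5 in G1-A5 (5.4%, against 27.3%) and 8 in A6-C9 (8.6%, against 31.6%). The shares of the members were lower in every clone. The members are abundant transcripts, and among the 9886 genes with a mean log2 CPM of at least 3 the shares were 7.56% to 21.5% in the clones, against 3.5% to 12.9% of the 85 members at that level.

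The 2 parental samples stood apart from each other in many of these genes. Parental-2 was at least 1.5-fold above parental-1 in 27 members (29.0%) and that far below it in none, where 19.3% of all genes differed by that much either way. This sets single samples against each other, while the clones were set against a mean of 2. Among the 9886 genes with a mean log2 CPM of at least 3, parental-2 was that far above parental-1 in 4.49%. Of the 85 members at that level, 22 (25.9%) were. Either way, 6.19% of these 9886 genes differed by that much. Of the 76 subunit genes, 63 were higher in parental-2, 6 of them at least 2-fold. These 6, chosen after their values were seen, were NDUFA1, NDUFA3, NDUFA7, NDUFS6, COX7C and ATP5E, all of which encode small proteins. NDUFA3 was at 8.43 CPM in parental-1 and 22.3 in parental-2, and at 6.82 to 12.4 in the clones. COX7C was at 41.0 and 91.3 CPM in parental RKO and at 39.5 to 67.8 in the clones. For both genes parental-1 lay among or near the clones and parental-2 lay above all of them.

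The same direction was seen in short transcripts of other genes. By annotated transcript length, with a mean log2 CPM of at least 3, the median of parental-2 minus parental-1 over 139 other genes under 600 nt was 0.51, and over 20 members of that length 0.30. From 600 to under 1000 nt it was 0.24 over 381 other genes and 0.32 over 26 members. From 1000 to under 2500 nt it was 0.02 over 2562 other genes and 0.21 over 23 members, and at 2500 nt or more -0.02 and 0.09 over 15 members. The 80 cytosolic ribosomal protein genes, most of which also have short transcripts, had a median of 0.46. The 79 symbols of mitochondrial ribosomal proteins, with the pseudogene symbol MRPL42P5 among them, had a median of 0.05. The part of transcript length in the difference of the members was not tested.

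**Figure D2:**
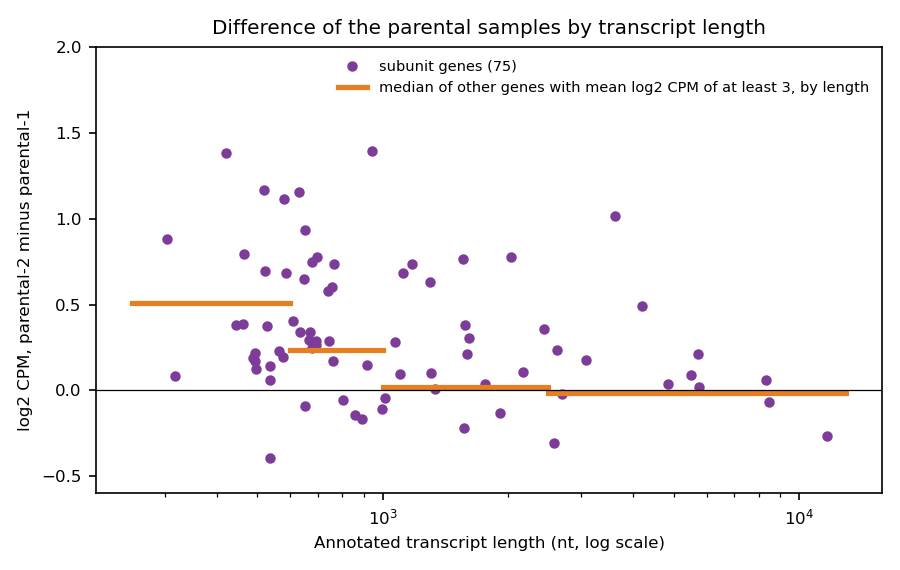
Log2 CPM of parental-2 minus parental-1 (y axis) against annotated transcript length on a log axis (x axis) for 75 subunit genes, with the medians of other genes by length as orange lines. The orange lines fall from 0.51 under 600 nt to -0.02 at 2500 nt or more, and 63 of the 76 tested subunit genes lie above 0.

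In complex I, the core and the supernumerary subunits stood apart in several clones. The 7 nuclear core subunit genes, which carry the flavin and iron-sulfur centres and the ubiquinone site, had medians of 0.45 in F6-A7, 0.33 in A6-C9, 0.19 in C10, 0.17 in G1-A5, 0.04 in A9-A12, 0.02 in E3 and -0.01 in H9-A4. The 30 supernumerary subunit genes had medians of -0.23 to 0.04, below the core in every clone. The parental samples differed by 0.17 in the core and 0.27 in the supernumerary genes. The 7 core genes did not all go the same way. By the fit, 3 were higher and 4 lower in DIP2C-/- clones, with a median log2 fold change of -0.04. In DIP2C+/- clones 6 were higher and 1 lower, with a median of 0.19. The supernumerary genes had fitted medians of -0.13 in DIP2C-/- clones and -0.12 in DIP2C+/- clones. NDUFV2, an iron-sulfur subunit of the core, was at 86.1 and 78.0 CPM in parental-1 and parental-2, at 125 in E3 and 115 in C10, and at 99.9, 83.8, 93.9, 112 and 112 in the DIP2C+/- clones. Only H9-A4 was below the higher parental sample. Its log2 fold change was 0.55 ± 0.17 in DIP2C-/- clones (SE, adjusted p = 0.318) and 0.36 ± 0.14 over all clones (SE, adjusted p = 0.327).

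NDUFB11, an X-linked subunit of the membrane arm, was at 49.2 and 79.2 CPM in parental RKO, at 31.6 in E3 and 37.9 in C10, and at 48.3, 53.7, 39.9, 55.6 and 48.7 in the DIP2C+/- clones. Both DIP2C-/- clones were below the other 7 samples. Against parental RKO its log2 fold change was -0.89 ± 0.24 for DIP2C-/- clones (SE, adjusted p = 0.313) and 0.50 ± 0.21 between DIP2C+/- and DIP2C-/- clones (SE, adjusted p = 0.878). DESeq2 gave -0.89 with an adjusted p of 0.0477. The size rested on parental-2: in edgeR the log2 fold change for DIP2C-/- clones was -0.51 ± 0.26 without parental-2 (SE, adjusted p = 0.738) and -1.20 ± 0.25 without parental-1 (SE, adjusted p = 0.478). Since both DIP2C-/- clones came from 1 line, their agreement is not that of independent clones.

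The lowest complex I genes over all clones were below the parental mean but at about the level of parental-1. NDUFA7, a supernumerary subunit, was at 15.0 CPM in parental-1 and 32.7 in parental-2, at 16.8 and 16.5 in E3 and C10, and at 15.3, 16.8, 18.2, 14.5 and 15.2 in the DIP2C+/- clones. All 7 clones were within 4 CPM of parental-1, and parental-2 stood alone. NDUFC1, also supernumerary, was at 24.9 and 42.8 CPM in parental RKO, and at 19.99 to 27.4 in the clones. The fitted log2 fold changes, -0.56 ± 0.24 for NDUFA7 (SE, adjusted p = 0.356) and -0.55 ± 0.20 for NDUFC1 (SE, adjusted p = 0.323), thus rest on parental-2.

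Clone A9-A12 had the most complex I genes past the limit. Of its 12 subunit genes at least 1.5-fold from the parental mean, all were lower and 9 were of complex I. Complex I holds 37 of the 76 tested subunit genes, so 9 of 37 were past the limit. In A9-A12 31% of all genes were past it either way, as were 21.5% of those with a mean log2 CPM of at least 3. These shares count both directions. Of the genes at that level 11.5% were past it as higher, so the share past it as lower was well under 21.5%. Of the 85 members at that level 11 were past it, 0 of them as higher. Within complex I the largest log2 differences were in NDUFA12 (-1.08) and NDUFA3 (-0.998), followed by NDUFS6 (-0.82), NDUFB1 (-0.82) and NDUFA5 (-0.80). These were named after their values were seen. Several rested on parental-2: against parental-1 alone 3 of the 9 were past the limit (NDUFA12, NDUFB1 and NDUFA5), and against parental-2 alone all 9 were. The difference of NDUFA3 was -0.30 from parental-1 and -1.69 from parental-2, and that of NDUFS6 was -0.24 and -1.41. NDUFA12 differed by -0.96 and -1.19. NDUFA5 was at 28.9 and 30.8 CPM in parental RKO, at 17.1 in A9-A12, and at 18.0 to 32.2 in the other 6 clones. In that gene the low value of A9-A12 was close to that of A6-C9. The 7 complex I assembly factors, proteins that build the complex and are not part of it, had clone medians of -0.19 to 0.18.

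**Figure D3:**
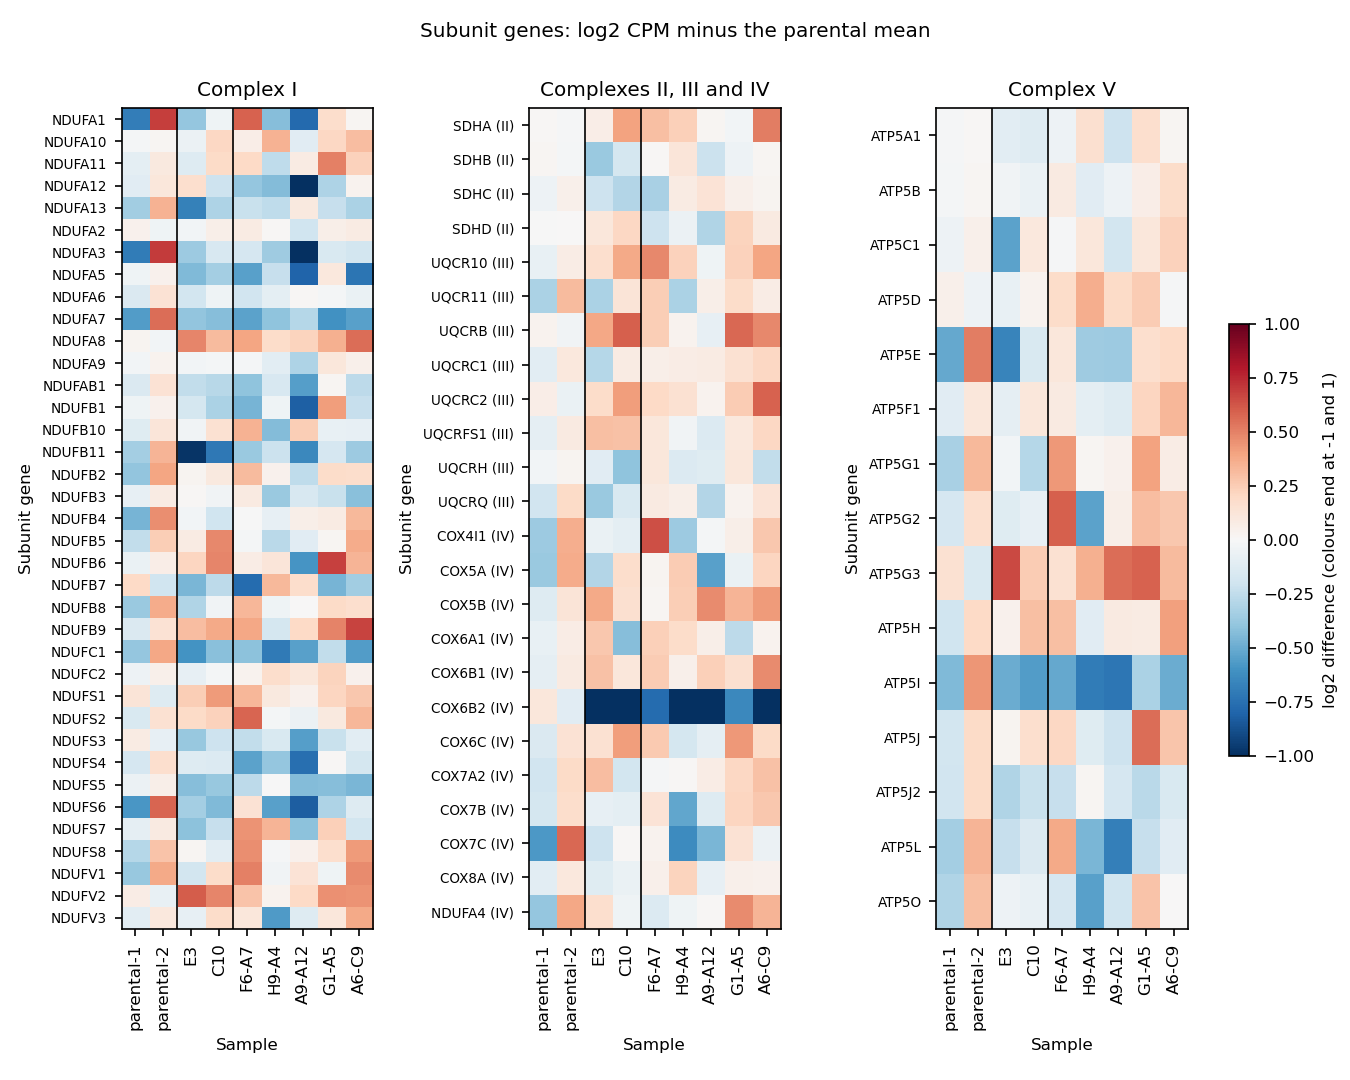
Log2 CPM of each sample (columns) minus the parental mean for the 76 tested subunit genes (rows), in 3 panels by complex; colours end at -1 (blue) and 1 (red), and vertical lines part parental RKO, DIP2C-/- and DIP2C+/- samples. Parental-2 is mostly red, and NDUFA8 is red and COX6B2 blue in all 7 clones. COX6B2 passed the filter on low counts through parental RKO alone. The blue cells of A9-A12 are mostly in complex I, which holds 37 of the 76 genes.

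Complex II, or succinate dehydrogenase, is the complex without subunits from mitochondrial DNA and is also an enzyme of the tricarboxylic acid cycle. It was the complex in which the parental samples agreed best, at 460.1 and 458.2 CPM summed over the 4 genes, with the clones at 428.3 to 540.0. SDHA, the flavoprotein that oxidises succinate, was at 172 and 169 CPM in parental RKO, at 179 and 226 in E3 and C10, and at 211, 202, 173, 167 and 244 in the DIP2C+/- clones. All clones but G1-A5, which was below both, were above both parental samples. The log2 fold change of SDHA over all clones was 0.23 ± 0.17 (SE, adjusted p = 0.569). SDHB, the iron-sulfur subunit, was at 152 and 147 CPM in parental RKO, 115 in E3, 133 in C10 and 129 to 162 in the DIP2C+/- clones. The membrane anchors SDHC and SDHD had log2 fold changes of -0.07 ± 0.14 (adjusted p = 0.875) and 0.02 ± 0.15 (adjusted p = 0.969) over all clones (SE), and that of SDHB was -0.09 ± 0.13 (SE, adjusted p = 0.809).

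In complex III, UQCRB and UQCR10 were highest and UQCRH and UQCRQ lowest over all clones. UQCRB, a subunit at the ubiquinone-binding region, was at 132 and 126 CPM in parental RKO, at 169 and 196 in E3 and C10, and at 153, 133, 122, 193 and 181 in the DIP2C+/- clones. H9-A4 was at the parental level and A9-A12 below it. The log2 fold change of UQCRB was 0.50 ± 0.22 in DIP2C-/- clones (SE, adjusted p = 0.39) and 0.34 ± 0.18 over all clones (SE, adjusted p = 0.447). UQCR10, a small subunit beside cytochrome c1, was at 60.9 and 67.5 CPM in parental RKO and at 62.2 to 89.5 in the clones, with a log2 fold change of 0.27 ± 0.15 (SE, adjusted p = 0.466). UQCRH, the hinge protein, was at 116 and 121 CPM in parental RKO and at 89.6 to 128 in the clones. UQCRQ was at 101 and 132 CPM in parental RKO and at 89.1 to 127 in the clones. Log2 fold changes of UQCRH and UQCRQ over all clones were -0.11 ± 0.14 (adjusted p = 0.794) and -0.08 ± 0.15 (adjusted p = 0.875; SE). Reads of UQCRH may be split with its near copy UQCRHL, which was at 0.30 to 1.88 CPM.

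Complex IV, cytochrome c oxidase, has subunits with paralogues made in particular tissues, and 1 form of each predominated in these cells. On the scale of CPM per kb of annotated transcript, which allows genes to be compared, COX4I1 was at 212 ± 74.6 in parental RKO and COX4I2, the lung form, at 0.12 ± 0.061 (SD, n = 2). COX6A1 was at 463 ± 32.0 and COX6A2, the heart and muscle form, at 0.15 ± 0.21 (SD, n = 2). COX6B1 was at 305 ± 28.0, against 0.58 ± 0.070 for COX6B2 (SD, n = 2). COX7A2 was at 289 ± 54.4 and COX7A1, the heart and muscle form, at 0.54 ± 0.54 (SD, n = 2). COX7B was at 24.5 ± 4.26 and COX7B2 at 0.050 ± 0.070, and COX8A at 321 ± 34.3 and COX8C at 0.051 ± 0.072 (SD, n = 2). In the clones the same form of each pair was the higher one by over 100-fold in CPM. The tissue forms were at most 0.56 CPM in any clone. COX7A2L, which helps to join complexes III and IV, was at 43.4 and 42.8 CPM in parental RKO, at 58.8 and 57.2 in E3 and C10, and at 39.5 to 63.0 in the DIP2C+/- clones, with only A9-A12 below the parental samples.

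The highest complex IV genes were COX5B and COX6B1. COX5B, a subunit on the matrix side, was at 148 and 178 CPM in parental RKO, at 211 and 182 in E3 and C10, and at 165, 193, 226, 206 and 218 in the DIP2C+/- clones. All clones were above both parental samples except F6-A7, which lay between them. The log2 fold change of COX5B over all clones was 0.29 ± 0.15 (SE, adjusted p = 0.427), and that of COX6B1 0.23 ± 0.14 (SE, adjusted p = 0.498). COX7C had the lowest log2 fold change after COX6B2, -0.25 ± 0.28 (SE, adjusted p = 0.737). Among the other genes of the paralogue families, COX4I1, COX6A1, COX7A2, COX7B and COX8A had log2 fold changes between -0.02 and 0.10 over all clones. COX4I1 was at 244 CPM in F6-A7, against 121 and 202 in parental RKO and 122 to 189 in the other clones. NDUFA4, now counted to complex IV, was at 94.3 and 162 CPM in parental RKO and at 113 to 172 in the clones. Its paralogue NDUFA4L2, known to rise in low oxygen, was at 0.83 and 1.46 CPM in parental RKO and at 0.48 to 1.14 in the clones.

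Complex V showed the lowest subunit gene apart from COX6B2. ATP5I, the e subunit, which takes part in joining ATP synthases into dimers, was at 45.8 CPM in parental-1 and 84.4 in parental-2, at 44.1 and 42.1 in E3 and C10, and at 43.6, 38.2, 37.7, 49.9 and 44.1 in the DIP2C+/- clones. As with NDUFA7, parental-1 lay among the clones and parental-2 stood alone. Over all clones the log2 fold change was -0.60 ± 0.20 (SE, adjusted p = 0.304). ATP5L, the g subunit and partner of the e subunit, was at 45.8 and 73.6 CPM in parental RKO and at 36.1 to 75.7 in the clones, with F6-A7 highest. That of ATP5L was -0.22 ± 0.26 (SE, adjusted p = 0.759). ATP5H, the d subunit of the peripheral stalk, was at 64.2 and 84.9 CPM in parental RKO and at 68.1 to 98.3 in the clones, with a log2 fold change of 0.16 ± 0.17 (SE, adjusted p = 0.738).

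The c subunit, which forms the rotating ring of ATP synthase, is encoded by ATP5G1, ATP5G2 and ATP5G3, whose mature proteins are the same. ATP5G3 was the highest subunit gene over all clones. It was at 156 and 126 CPM in parental-1 and parental-2, at 222 and 167 in E3 and C10, and at 156, 180, 207, 212 and 175 in the DIP2C+/- clones. F6-A7 was at the level of parental-1 and the other 6 clones were above it. The log2 fold change was 0.42 ± 0.17 over all clones (SE, adjusted p = 0.332). ATP5G1 was at 40.7 and 63.9 CPM in parental RKO and at 41.9 to 68.7 in the clones, with a log2 fold change of 0.07 ± 0.19 (SE, adjusted p = 0.919). ATP5G2 was at 77.0 and 97.7 CPM in parental RKO and at 59.8 in H9-A4 to 131 in F6-A7, with a log2 fold change of 0.10 ± 0.24 (SE, adjusted p = 0.903). In parental RKO the 3 genes were at 80.9 ± 25.5, 138 ± 23.1 and 54.6 ± 8.23 CPM per kb in that order (SD, n = 2), the last with an annotated transcript of 2587 nt.

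The starts of ATP5G1 and ATP5G2 (RefSeq symbols ATP5MC1 and ATP5MC2) are given because these genes make 1 protein from separate promoters. They are again from GRCh38.p14, at chr17:48892537-48892786 (plus strand) and chr12:53676084-53676333 (minus strand, the first of 3 starts listed), with the 3 motifs in capitals.
ATP5G1: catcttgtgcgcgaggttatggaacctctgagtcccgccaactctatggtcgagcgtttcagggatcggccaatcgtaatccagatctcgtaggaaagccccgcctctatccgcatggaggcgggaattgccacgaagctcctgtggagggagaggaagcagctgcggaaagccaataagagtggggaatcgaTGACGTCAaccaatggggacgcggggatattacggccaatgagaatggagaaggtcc
ATP5G2: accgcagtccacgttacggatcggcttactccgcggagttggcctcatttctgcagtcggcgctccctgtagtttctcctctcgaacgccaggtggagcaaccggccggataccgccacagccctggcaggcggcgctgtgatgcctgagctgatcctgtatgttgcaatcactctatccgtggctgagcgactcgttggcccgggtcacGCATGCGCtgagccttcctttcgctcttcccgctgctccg
The sequence of ATP5G1 held the cAMP response element and that of ATP5G2 the NRF1 letters, and neither held the motif of the other.

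**Figure D4:**
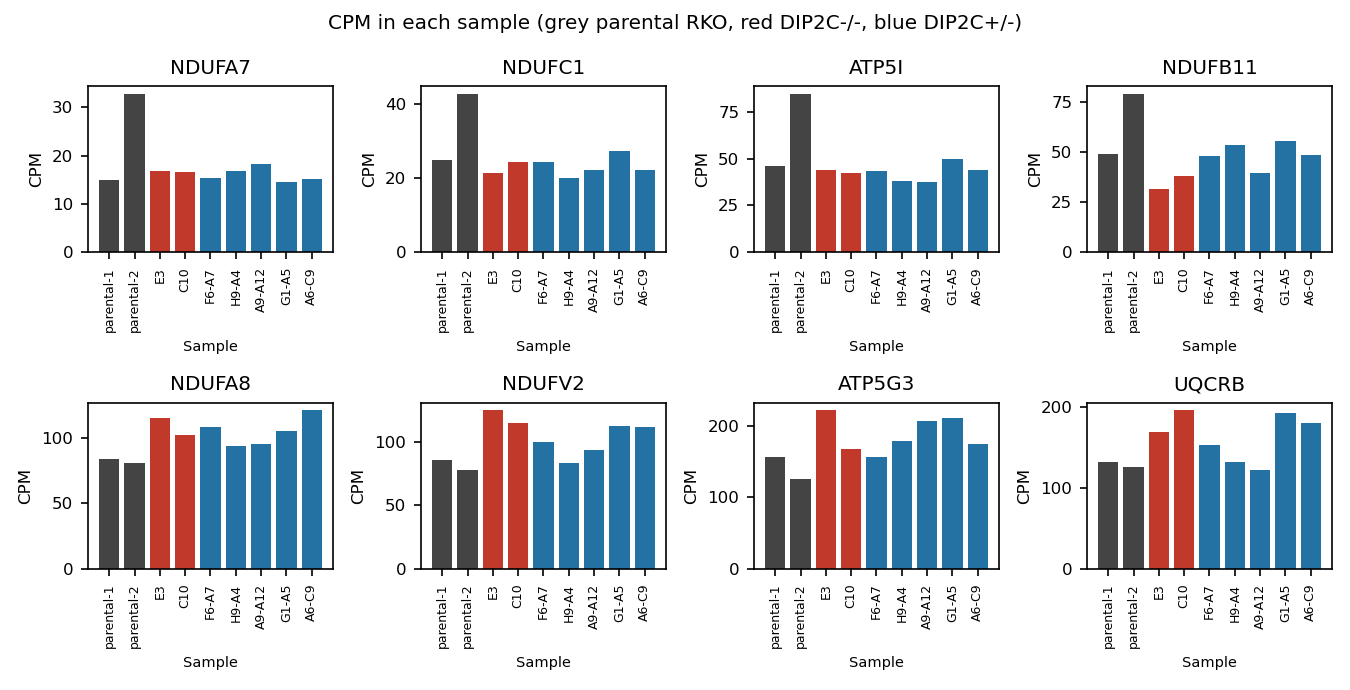
CPM of 8 subunit genes (y axis, from 0) in every sample (x axis); bars are grey for parental RKO, red for DIP2C-/- and blue for DIP2C+/- clones. In NDUFA7, NDUFC1 and ATP5I the bar of parental-2 stands above all others, and in NDUFA8 all 7 clone bars are above both grey bars.

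The read-through symbol ATP5J2-PTCD1 differed most between samples of all members. It was at 0.17 CPM in parental-1 and 10.3 in parental-2, at 5.55 and 4.98 in E3 and C10, at 3.05 in F6-A7 and at 0 in the other 4 DIP2C+/- clones. A count of 0 allows up to 3 counts, 0.14 to 0.203 CPM. ATP5J2 itself, the f subunit gene in which it starts, was at 102 and 133 CPM in parental RKO and at 94.4 to 118 in the clones. How reads were shared between these overlapping symbols, and between NDUFC2 and NDUFC2-KCTD14 or NDUFAF4 and NDUFAF4P1, is not given in the sources used here.

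Members that lie on chromosome 8 were higher in most clones, as were the genes around them. Over 346 genes of that chromosome with a mean log2 CPM of at least 3, the median difference from the parental mean was -0.09 in H9-A4 and above 0 in all others, at 0.34 in G1-A5, 0.28 in A6-C9, 0.28 in C10, 0.22 in E3, 0.18 in F6-A7 and 0.15 in A9-A12. Over the other chromosomes the medians were -0.23 to 0.19. UQCRB (97235175 to 97247774, GRCh37), COX6C (100885428 to 100905935), NDUFB9 (125551342 to 125592889) and the assembly factor gene NDUFAF6 (95907761 to 96128683) are the members there. NDUFB9, a supernumerary subunit of complex I, was at 219 and 267 CPM in parental RKO, at 300.2 and 315 in E3 and C10, and at 316, 214, 278, 342 and 387 in the DIP2C+/- clones. It was above both parental samples in 6 clones and below both in H9-A4. Its difference was 0.20 to 0.68 in those 6 clones, where the median of 41 other genes within 10 Mb was 0.11 to 0.39, and -0.18 in H9-A4, where that median was -0.09. COX6C, a complex IV subunit, differed by 0.42 in C10 and 0.43 in G1-A5 beside medians of 0.29 and 0.39 over 51 nearby genes, and by -0.18 in H9-A4 beside -0.10. Members and their neighbours did not go together in every clone. In A9-A12, COX6C differed by -0.09 beside 0.09, and UQCRB by -0.08 beside 0.15 over 48 nearby genes. In H9-A4, UQCRB differed by 0.03 beside -0.09, and in G1-A5 NDUFAF6 differed by 0.10 beside 0.39 over 53 nearby genes. Gene copy number was not measured, and its part in these differences was not tested.

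**Figure D5:**
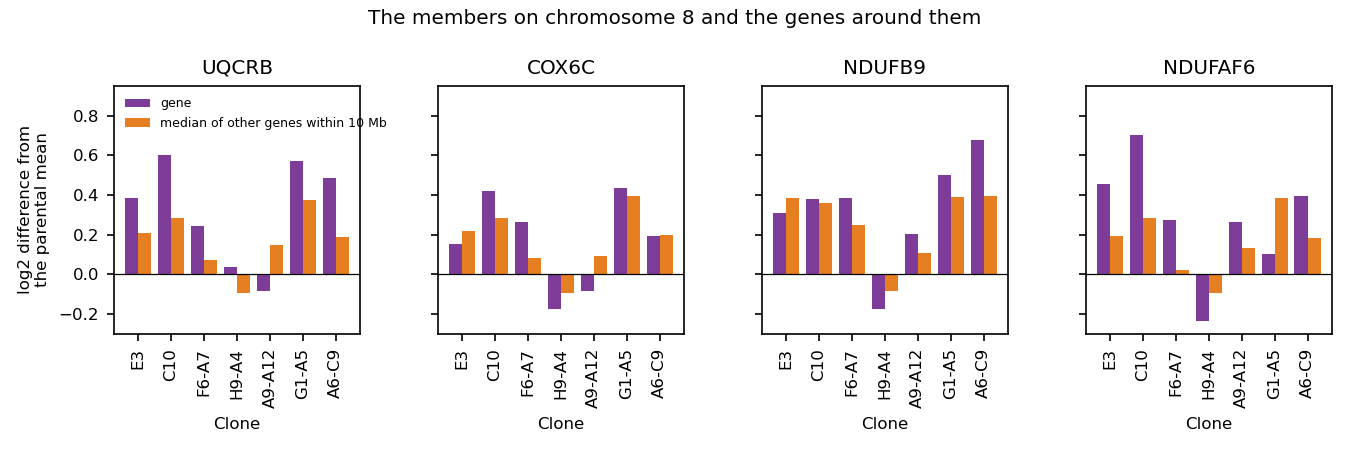
Log2 difference of each clone from the parental mean (y axis) for the 4 members on chromosome 8 (purple) and the median of other genes within 10 Mb (orange), by clone (x axis). The orange bars are above 0 in 6 clones and below 0 in H9-A4 in all 4 panels, and the bars of UQCRB reach 0.60 in C10 and 0.57 in G1-A5.

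In clone E3, ATP5C1 and ATP5I lay in stretches whose genes stood apart from the parental mean. ATP5C1, the gamma subunit that turns inside ATP synthase, lies on chromosome 10 from 7830110 to 7849778 (GRCh37) and was at 297 and 317 CPM in parental RKO, at 212 in E3 and at 270.2 to 360.1 in the other clones. Its difference in E3 was -0.53, and the median of 51 genes within 10 Mb was -0.60. By the study's text DIP2C lies on the short arm of the same chromosome, and whether its low level in E3 is linked to this stretch was not tested. ATP5I lies near the end of chromosome 4 (666225 to 668119), where the median of 54 nearby genes in E3 was 0.61 and ATP5I differed by -0.49 from the parental mean. That difference rested on parental-2. ATP5I was at 44.1 CPM in E3, 45.8 in parental-1 and 84.4 in parental-2. It was at 37.7 to 49.9 CPM in the other clones, so its level was not particular to E3. All of these places were picked after the values were seen.

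Other genes of mitochondrial function had no calls in edgeR either. Over all clones, at an unadjusted p under 0.05, 4 of 13 genes of the tricarboxylic acid cycle were higher and 0 lower, with a median log2 fold change of 0.09. Over all genes tested 6.91% were higher and 6.46% lower at that p, and the median was 0.02. The range was from SUCLA2 (-0.35) to IDH3G (0.66, adjusted p = 0.319), a subunit of isocitrate dehydrogenase. Of 15 regulators of mitochondrial biogenesis, 2 were higher and 0 lower, from PPARGC1B (-0.25) to MYC (0.66, adjusted p = 0.171), which also lies on chromosome 8. Of 36 other assembly factors, 3 were higher and 3 lower, from COX17 (-0.59), a copper carrier of complex IV, to COX14 (0.63). Among 4 subunit and regulatory genes of the complexes with other symbols, ATPIF1, the inhibitor of ATP synthase, was lowest (-0.86, adjusted p = 0.267) and C14orf2 highest (0.23). Of 79 symbols of mitochondrial ribosomal proteins, 1 was higher and 1 lower, from MRPL52 (-0.38) to MRPL42P5 (0.40), which is a pseudogene symbol. Of 80 cytosolic ribosomal protein genes, 1 was higher and 9 lower, from RPS27 (-0.83) to RPS27L (0.69), and their median was -0.12, beside -0.24 in DIP2C-/- clones alone. The medians of the 93 members in these 2 contrasts were 0.01 and -0.05. Of the complex I assembly factors, 0 of 7 passed an unadjusted p under 0.05 over all clones, from NDUFAF5 (-0.27) to NDUFAF6 (0.29).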

How the data were processed

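RNA from 9 samples, 1 library each, was sequenced on the Ion Proton system. Alignment to hg19 by the authors used TopHat2 2.0.4 and quantification used Cufflinks (2.2.1 in the submitters' processing notes). The deposited estimated counts were not whole numbers but multiples of a constant of 0.711 to 1.11 per sample for 98.2% to 98.7% of low values (within 0.01 of a whole multiple). How this constant was set is not given in the sources used here. The totals were 14772593 to 21486483 per sample, which corresponded to 17134472 to 24864011 reads. The floor of 3 counts covers counting error only, while SEs are from the fit and include the spread between samples.

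Groups were taken from the labels, which give each clone as a separate sample. The labels hold 5 DIP2C+/- clones, more than the study's text describes, and all were used as separate clones. Nothing says that the parental samples came from separate cultures, so the spread between them may be technical. The p-values rest on the spread within groups over all 9 samples. The largest group is that of the 5 DIP2C+/- clones, so they measure spread between clones as well as between parental samples. No batch or date is given. The estimated counts were rounded, filtered by edgeR's filterByExpr, scaled by TMM and fitted over all 9 samples, with a coefficient for each group, in edgeR 4.0.16 (R 4.3.3, limma 3.58.1), with the quasi-likelihood F test and Benjamini-Hochberg adjustment over all genes. The common biological coefficient of variation was 0.298. Log2 CPM used a prior count of 2, and CPM values are scaled by TMM. The scripts were tested on simulated data with known changes.

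Members and lists were chosen with earlier results of these data known. Genes named are the 2 highest and 2 lowest tested subunit genes of each complex over all clones, members called in a contrast, the paralogue families and DIP2C; others are marked as chosen after their values were seen. Lists are given by counts, medians and their lowest and highest gene. Alternatives were DESeq2 size factors, library size only, DESeq2 1.42.0, no filter, a minimum of 10 counts in each sample, a fit of the compared groups alone, leaving out each sample, values divided by the constant, a prior count of 0.5 and subunit genes only. Those for non-overlapping samples, and the comparisons by abundance, transcript length and position, were added after seeing the data. Positions and canonical transcript lengths are from GENCODE 44 on GRCh37, in which all 100 members and 93.4% of genes had a position. Annotated lengths can exceed the transcripts made. Promoters are from RefSeq, GRCh38.p14, in which 77 of 100 members had an entry; motifs were searched in the first start listed for each gene. Python was 3.11.15, with pandas 2.3.3, numpy 2.4.6 and matplotlib 3.10.9.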

Additional observations from a re-analysis of the deposited data

Results flagged for a closer look

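In the 5 DIP2C+/- clones, 36 values (medians over the members and the complexes, and the named genes) were examined for a clone far from the others by Dixon's test, in which the gap to the nearest clone is divided by the range and compared with 0.71. By chance about 1 in 20 groups is picked out, or 1.8 of 36, and 2 were. SDHC, a membrane anchor of complex II, was at 5.91 log2 CPM in F6-A7 and at 6.26 to 6.37 in the other 4 clones. UQCRQ, a small subunit of complex III, was at 6.56 log2 CPM in A9-A12 and at 6.89 to 6.98 in the other 4.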

How the results depend on the processing

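The 0 calls of members held under every alternative with 3 exceptions. DESeq2 called 1 member (NDUFB11, lower) in DIP2C-/- clones, the fit without any DIP2C+/- clone called 3, and leaving out H9-A4 gave 1 call (NDUFS5, lower) over all clones, so that leaving out single samples gave 0 to 1 there and 0 in the other comparisons. The cause was not tested. No paired analysis was possible because the labels carry no replicate numbers shared between groups. Leaving out either parental sample set the members' median between -0.23 and 0.09 in E3, -0.18 and 0.21 in C10, -0.05 and 0.18 in F6-A7, -0.25 and 0.086 in H9-A4, -0.25 and -0.02 in A9-A12, -0.03 and 0.23 in G1-A5, and -0.035 and 0.28 in A6-C9. The members at least 1.5-fold from the remaining parental sample were then 8 to 21 in E3, 10 to 18 in C10, 14 to 19 in F6-A7, 5 to 22 in H9-A4, 11 to 28 in A9-A12, 14 in G1-A5 and 17 to 19 in A6-C9. With at least 10 counts in every sample they were 7 in E3, 2 in C10, 5 in F6-A7, 3 in H9-A4, 11 in A9-A12, 2 in G1-A5 and 4 in A6-C9, and with subunit genes only 7 in E3, 3 in C10, 5 in F6-A7, 4 in H9-A4 and 4 in A6-C9, since fewer genes entered. The members with all clones above both parental samples were 1 to 6 when single clones were left out (6 without A9-A12), and those below both 3 to 9 (9 without G1-A5). Leaving out a clone makes both easier for any gene. Shares over all genes are not given for these counts or for those past 1.5-fold above. None of them is read as a result about the members. Of the 20 named subunit genes, the log2 fold change over all clones turned its direction when parental-2 was left out in NDUFA7 (-1.02 to 0.11 over the samples left out), UQCRQ (-0.26 to 0.13), COX7C (-0.72 to 0.44) and ATP5L (-0.53 to 0.16), and when parental-1 was left out in ATP5H (-0.037 to 0.37). That of SDHD did so with library size only (-0.014) and without C10 or G1-A5 (-0.020 to 0.069). Other scalings and the prior count shifted the members' medians by less than the SD between the parental medians, 0.18, but with library size only the median was 0.0050 in G1-A5 and turned to -0.0059 in A6-C9. That scaling moved the median of all genes by -0.10 in G1-A5 and -0.079 in A6-C9. None of these 20 genes gained a call over all clones, while NDUFV2 and UQCRB were among the 3 called in DIP2C-/- clones without any DIP2C+/- clone. Depth limits the low paralogues most, since 3 counts were up to 0.203 CPM.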
